A study of Mus musculus with 2 samples.

Results

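Intermediate filament genes were taken as all non-control probes of a whole mouse genome array whose printed gene name began with Krt and a digit, or was one of 13 names of other intermediate filament genes (Vim, Nes, Des, Gfap, Nefl, Nefm, Nefh, Ina, Prph, Synm, Lmna, Lmnb1 and Lmnb2). Keratin-associated proteins were not taken. The rule found 68 of 41174 probes, 50 for keratins and 18 for other filament genes. They stand for 52 of the 27942 genes on the array, 42 keratins and 10 others. For 3 of the 13 names (Nefm, Prph and Synm) no probe carried the name as written. RNA came from a line that overexpressed Pax6, a transcription factor needed to form the eye and parts of the brain, and from a line that overexpressed EGFP, a green fluorescent protein, with 1 array per line. Both lines were made by Tol2 transposition of a CAG-driven construct into N31, a line of 129/Ola mouse neural progenitors that was made from induced pluripotent stem cells and carries doxycycline-inducible transgenes of the reprogramming factors (Oct3/4, Sox2, Klf4, c-Myc), and both were sampled 24 h after doxycycline. By the labels, the EGFP line and not the Pax6 line had by then altered its morphology, and the comparison asks how Pax6 bears on the switch of mesenchymal to epithelial character early in reprogramming.

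Intermediate filaments are the rope-like part of the cytoskeleton, and which proteins build them depends on the cell type. Epithelial cells build them from keratins, which assemble only as pairs of an acidic type I and a basic type II protein. Neural progenitors build them from nestin and vimentin, muscle from desmin, mature astrocytes from GFAP and neurons from neurofilament proteins, while lamins line the inside of the nucleus in nearly all cells.

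Signals below are the scanner software's processed intensities in arbitrary units. Differences are log2, Pax6 minus EGFP, after each array was scaled to its 75th percentile (a signal of 991 on the Pax6 array and 854 on the EGFP array), and the value after ± is the software's measurement error, with a median of 0.20 over all genes. A gene took its brightest probe and counted as higher or lower when the difference was at least 2-fold. With 1 array per group there was no replicate and no test, and the errors do not cover the spread between cultures. Well above background were 67.2% of spots on the Pax6 array and 64.7% on the EGFP array, and a probe that was not is called dim. Among the markers of the labelled cell type, 8 of 9 neural progenitor genes were well above background and Hes5 was dim. The list holds Pax6, overexpressed in one line, and Sox2, an inducible transgene of both, whose detection says nothing of the cell type. Without them 6 of 7 were well above background. Sums over marker lists are given as multiples of each array's 75th percentile signal. The deposited names are those of the array design, and positions are on mouse build mm7, for which gene structure was not looked up, so exons are not named.

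Keratins of simple epithelia were lower on the Pax6 array, and the only keratin counted as higher was Krt76. Of 42 keratin genes, 20 cleared background on 1 or both arrays. Among these 20, 5 were lower by 2-fold or more, 1 was higher by as much and 14 lay within 2-fold. Over all 18679 genes measured, 2.46% were lower by this rule, 2.39% were higher and 4.85% were either. These are 459 lower and 446 higher genes, against 364 lower and 532 higher after scaling by the median and 108 lower and 175 higher with normexp background correction, a setting that here also adds an offset of 50 and normalizes by quantiles. The 5 lower keratins were Krt8, Krt18, Krt19, Krt7 and Krt20, which are 5 of the 6 simple-epithelial keratins on the array. The remaining one, Krt23, was dim on both arrays. The median difference of the 20 keratins was -0.23, against -0.01 for all genes, and their median absolute difference was 0.54, against 0.18.

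**Figure D1:**
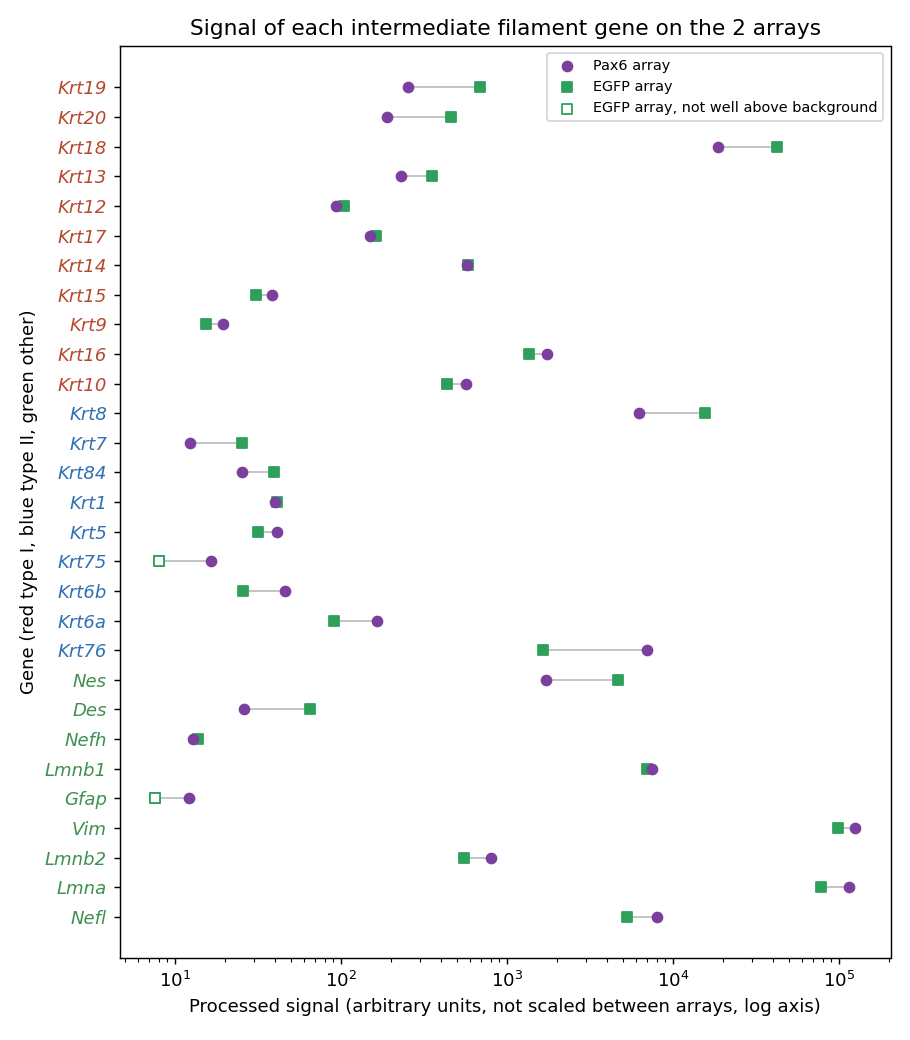
Processed signal (log axis, arbitrary units, before scaling) of the 29 intermediate filament genes well above background on at least 1 array, with the Pax6 array as circles and the EGFP array as squares. The circles of Krt19, Krt20, Krt18, Krt8, Krt7, Nes and Des lie clearly left of their squares, and that of Krt76 lies clearly right of its square.

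Krt8 and Krt18 form the first keratin pair of the embryo and the basic filament of simple epithelia. Krt8 had signals of 6266 on the Pax6 array and 15665 on the EGFP array (chromosome 15, 101983072 to 101983131), a difference of -1.54 ± 0.20, or 2.90-fold lower. Its second probe (101982940 to 101982999) read 5908 on the Pax6 array and 16453 on the EGFP array, a difference of -1.69 ± 0.20. Krt18 read 18657 on the Pax6 array and 42773 on the EGFP array (chromosome 15, 102018067 to 102018126), a difference of -1.41 ± 0.20, or 2.66-fold lower. Both Krt8 probes and the Krt18 probe were thus lower on the Pax6 array by similar amounts. The gap between the partners, Krt8 minus Krt18, was -0.13, within its measurement error of 0.29. Processed pseudogenes of both genes are numerous, and their probes may also read such sequence.

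Krt19, a short type I keratin of ducts and other simple epithelia, read 253 on the Pax6 array and 690 on the EGFP array (chromosome 11, 100250117 to 100250176), a difference of -1.66 ± 0.20, or 3.17-fold lower, which placed it lowest among the keratins that the name rule took. Only 0.434% of all genes measured had a lower difference. Krt20, a type I keratin of gut epithelium, read 189 on the Pax6 array and 460 on the EGFP array (chromosome 11, 99537501 to 99537560), a difference of -1.50 ± 0.20, or 2.82-fold lower. Both therefore lay well outside 2-fold by more than their measurement error.

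Krt7, a type II keratin of ducts and other simple epithelia, was close to background. It read 12.3 on the Pax6 array and 25.4 on the EGFP array (chromosome 15, 101413898 to 101413957), a difference of -1.26 ± 0.38, or 2.39-fold lower. The lowest signals counted as well above background were 9.30 on the Pax6 array and 10.3 on the EGFP array. The second Krt7 probe, which carries the RefSeq accession, was dim on both arrays. With normexp background correction the difference of Krt7 was -0.31, within 2-fold. The offset of 50 in that setting is above both Krt7 signals and shrinks the difference, so that value cannot decide the call. The 4 other simple-epithelial keratins stayed at least 2-fold lower with that correction, between -1.52 (Krt8) and -1.18 (Krt20).

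Promoter windows of 5 keratins are shown, 4 of the 5 lower ones (Krt8, Krt18, Krt7 and Krt20) and Krt76, which was higher. Each runs from 250 bases before to 50 after the gene's start, from RefSeq on GRCm38.p6, a different build from the probe positions. Capitals mark CACCTG, an E-box sequence that the Zeb and Snail repressors can bind, and TATAAA, the core of the TATA box, on either strand. These motifs were chosen after the values were seen.
Krt8, chr15:102004293-102004592, minus strand: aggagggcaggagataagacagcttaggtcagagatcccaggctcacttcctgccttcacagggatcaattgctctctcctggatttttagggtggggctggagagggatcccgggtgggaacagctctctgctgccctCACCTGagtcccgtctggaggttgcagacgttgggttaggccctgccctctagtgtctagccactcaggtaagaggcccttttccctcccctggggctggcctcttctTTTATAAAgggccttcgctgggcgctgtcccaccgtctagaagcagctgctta
Krt18, chr15:102027966-102028265, plus strand: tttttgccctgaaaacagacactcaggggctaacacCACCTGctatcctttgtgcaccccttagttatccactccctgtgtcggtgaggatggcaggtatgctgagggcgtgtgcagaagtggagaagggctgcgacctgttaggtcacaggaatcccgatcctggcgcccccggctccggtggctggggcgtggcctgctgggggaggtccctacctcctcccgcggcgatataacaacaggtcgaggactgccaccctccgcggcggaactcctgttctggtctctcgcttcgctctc
Krt7, chr15:101412153-101412452, plus strand: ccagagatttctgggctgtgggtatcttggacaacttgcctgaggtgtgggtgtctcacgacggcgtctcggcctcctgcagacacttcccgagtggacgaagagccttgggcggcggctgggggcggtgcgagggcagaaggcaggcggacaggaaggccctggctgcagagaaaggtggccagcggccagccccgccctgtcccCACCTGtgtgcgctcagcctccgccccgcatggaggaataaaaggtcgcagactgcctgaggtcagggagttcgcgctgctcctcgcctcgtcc
Krt20, chr11:99438104-99438403, minus strand: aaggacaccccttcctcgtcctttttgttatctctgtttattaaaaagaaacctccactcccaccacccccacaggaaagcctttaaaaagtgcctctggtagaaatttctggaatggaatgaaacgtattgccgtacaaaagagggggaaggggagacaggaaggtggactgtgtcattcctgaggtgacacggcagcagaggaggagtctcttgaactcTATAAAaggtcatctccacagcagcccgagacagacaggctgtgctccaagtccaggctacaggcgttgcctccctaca
Krt76, chr15:101892871-101893170, minus strand: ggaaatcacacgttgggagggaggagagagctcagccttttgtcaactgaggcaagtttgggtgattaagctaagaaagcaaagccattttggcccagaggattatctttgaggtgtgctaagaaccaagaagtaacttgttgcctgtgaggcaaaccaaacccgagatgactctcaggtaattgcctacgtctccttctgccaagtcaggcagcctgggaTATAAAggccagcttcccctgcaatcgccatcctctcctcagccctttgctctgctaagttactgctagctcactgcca
CACCTG stood in the windows of Krt8, Krt18 and Krt7 and in neither that of Krt20 nor that of Krt76, and 20.2% of all 32851 promoter windows held it. It also stood in the windows of Krt5 and Krt10 and in a window of Lmnb2, genes that were within 2-fold. TATAAA stood in the windows of Krt8, Krt20 and Krt76, and in 13.6% of all windows. The windows of Krt10, Krt12, Krt84 and Vim, genes within 2-fold, held TATAAA too. Further motifs were counted and are not described here, and no window was available for Krt19. In the Krt8 window a pair of TATAAA matches on opposite strands overlap. These matches describe the letters only.

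Markers of simple epithelium were lower on the Pax6 array along with the keratins. Of 10 genes listed for this cell type, 6 were well above background and 5 of these were at least 2-fold lower, with a median difference of -1.76 and a sum of 1.69 on the Pax6 array and 7.56 on the EGFP array. Cdh1, the gene of E-cadherin, was 10.6-fold lower and Epcam, an epithelial adhesion molecule, 3.90-fold lower. The tight junction gene Cldn7 was the exception at 0.20, and Cldn4, Esrp1, Ocln and Crb3 were dim on both arrays. Fewer cells with epithelial RNA and less such RNA per cell cannot be told apart in bulk RNA, and the part of such a shift in the keratin values was not tested.

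Keratins of stratified epithelia were within 2-fold, except Krt76. Krt5 and Krt14, the pair of the basal layer, were within 2-fold. Krt14 read 577 on the Pax6 array and 579 on the EGFP array (-0.22 ± 0.20 after scaling), and Krt5 read 41.3 on the Pax6 array and 31.8 on the EGFP array (0.16 ± 0.24). Krt15, a further basal keratin, differed by 0.10 ± 0.24. Of the defining genes of this tissue, Trp63, the master regulator of stratification, Dsg3, Dsc3 and Ivl were dim on both arrays. Lor, the gene of the cornified envelope protein loricrin, was the 1 of 4 measured markers counted as higher, at 1.50. The others were within 2-fold and below 0, with Pkp1 at -0.87, Perp at -0.21 and Sfn at -0.12. The list had a median difference of -0.17 and a sum of 32.1 on the Pax6 array and 36.3 on the EGFP array.

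Krt76, a type II keratin known from the palate and other oral epithelium, read 6976 on the Pax6 array and 1658 on the EGFP array (chromosome 15, 101870780 to 101870839). The difference was 1.86 ± 0.20, or 3.63-fold higher, and 99.4% of all genes measured had a lower difference. It stayed between 1.79 and 1.94 under the 4 alternatives that changed its value. The value rests on a single spot of a single probe per array. The type I keratins of differentiated layers were within 2-fold. Krt10, of the upper epidermis, read 568 on the Pax6 array and 435 on the EGFP array (0.17 ± 0.20), Krt12, of the cornea, differed by -0.38 ± 0.21 and Krt9, of palm and sole skin, by 0.13 ± 0.40. The direction of Krt9 turned to -0.08 with normexp background correction.

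Krt13, of oral and oesophageal epithelium, read 231 on the Pax6 array and 354 on the EGFP array, a difference of -0.83 ± 0.20, or 1.78-fold lower, short of the 2-fold rule. Its second probe was dim on the EGFP array and near the detection limit on the other, with a difference of 0.04 ± 0.46 as measured. The mean of both Krt13 probes gave -0.40. Krt4, the usual type II partner of Krt13, was dim on both arrays. Krt1, the epidermal partner of Krt10, is uncertain: the probe behind its value of -0.25 ± 0.23 lies on the plus strand, while its RefSeq probe lies on the minus strand and was dim on both arrays.

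Keratins of wounded skin and hair follicles were within 2-fold, with the type II members above 0. Krt6a read 164 on the Pax6 array and 90.4 on the EGFP array (0.65 ± 0.21), and Krt6b read 46.1 on the Pax6 array and 25.7 on the EGFP array (0.62 ± 0.24). Krt75, of the follicle's companion layer, cleared background on the Pax6 array alone, at a signal of 16.4. Its lower bound of 0.45, or 1.36-fold, was less than its error of 0.50, so no direction was read from it. Its difference as measured was 0.81 ± 0.50. With normexp background correction it was 0.04, but the offset of 50 in that setting shrinks differences at such low signals. The bound therefore depends on the setting. The type I partners gave 0.15 ± 0.20 for Krt16, with signals of 1755 on the Pax6 array and 1360 on the EGFP array, and -0.33 ± 0.21 for Krt17. Krt6a and Krt6b are near-identical, as are parts of Krt14, Krt16 and Krt17, so their probes can read each other's transcripts. With normexp background correction Krt6a and Krt6b differed by 0.42 and 0.28.

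Hair and root-sheath keratins were mostly undetected. Of 10 keratins of the hair shaft, Krt84 alone was well above background, with 25.4 on the Pax6 array and 39.4 on the EGFP array (-0.85 ± 0.25, and -0.25 with normexp background correction). Krt31, Krt32, Krt33a, Krt33b, Krt34, Krt35, Krt36, Krt82 and Krt85 were dim on both, as were the root-sheath keratins Krt25, Krt26, Krt27, Krt28 and Krt71. Krt2, Krt42, Krt78, Krt80, Krt87 and Krt222 were also not well above background on either array.

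**Figure D2:**
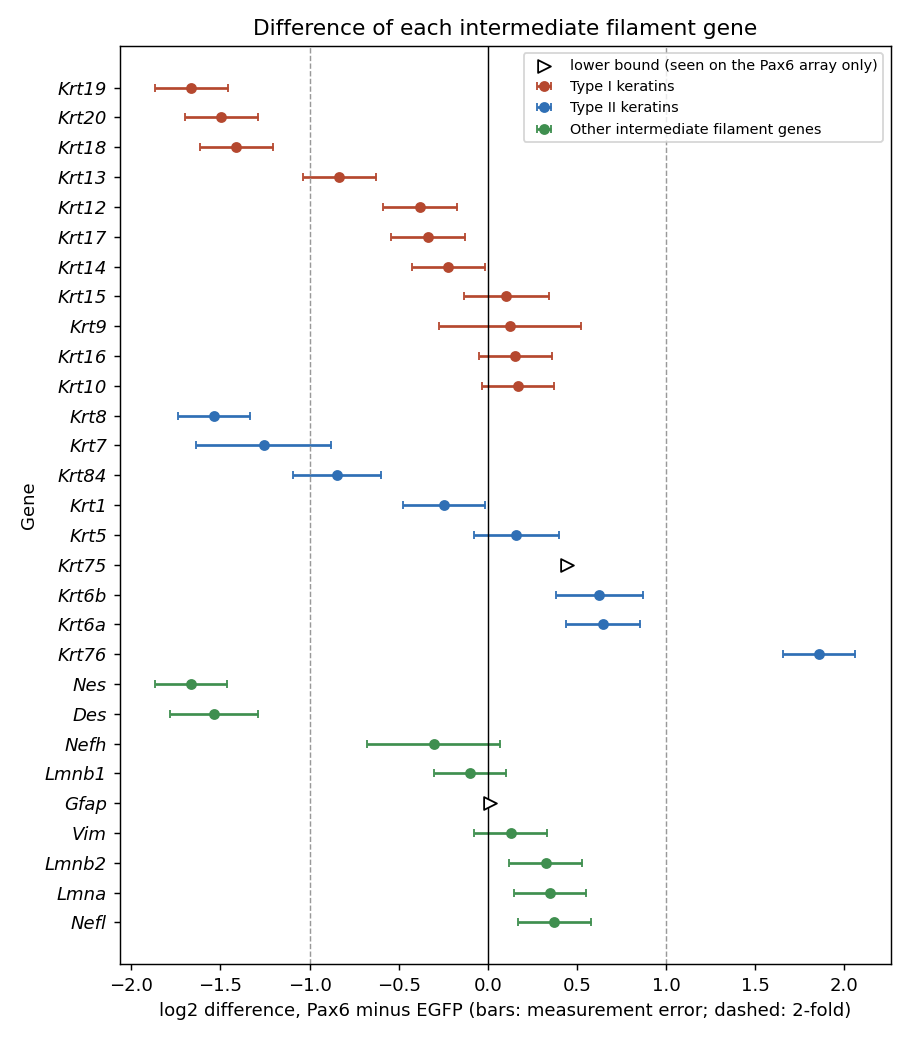
Log2 difference, Pax6 minus EGFP, of the 29 genes (points, with bars for the measurement error and open triangles for lower bounds), in 3 groups, with dashed lines at 2-fold. The 5 simple-epithelial keratins, Nes and Des lie beyond the left line, Krt76 lies beyond the right line, and the other 21 genes lie between the lines.

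Split by type, the 11 measured type I keratins had a median of -0.33, with 3 lower and 0 higher. The 9 measured type II keratins had a median of 0.16, with 2 lower and 1 higher, but a median of -0.04 over the 8 seen on both arrays, so no direction was read from it. Both members of a pair lay within their measurement error of each other for Krt8 with Krt18 and for Krt7 with Krt19. The gap of Krt7 with Krt19 was 0.41, with a larger error of 0.43 because Krt7 was near background. With normexp background correction the gap of Krt7 and Krt19 was 1.07 and that of Krt8 and Krt18 was -0.13. That setting adds an offset of 50, above both Krt7 signals, which shrinks the Krt7 difference. The gap of 1.07 therefore cannot decide whether this pair agrees. The largest gap was that of Krt6b with Krt17, where the type II member was higher by 0.96 with an error of 0.32. With normexp background correction that gap was 0.51. For Krt6a with Krt16 the gap was 0.49 with an error of 0.29. For Krt5 with Krt14 it was 0.38 and for Krt1 with Krt10 -0.42, each with an error of 0.31. These last gaps were similar in size to that of Krt7 with Krt19. Only the gap of Krt6b with Krt17 was more than 2 errors.

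Keratin genes lie in a pair of clusters, and lower genes stood both side by side and apart. Probes of 24 type I genes lay on chromosome 11, between 99343022 and 100374997, and those of 17 type II genes lay on chromosome 15, together with Krt18. Krt18 is the type I keratin that sits beside Krt8 at the end of the type II cluster. On the far side of Krt18, the translation factor gene Eif4b differed by 0.06. Krt19 lies between Krt15 and Krt9, which differed by 0.10 and 0.13. Krt20 lies next to Krt12, at -0.38. Krt77 and Krt4, the genes on either side of Krt76, gave no measured value. The array prints Krt79 under another name, outside the name rule. It lies between Krt4 and Krt78, both dim, and differed by -1.94, so among measured keratins Krt79, Krt8 and Krt18 were 3 lower genes in a row, next after Krt76.

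**Figure D3:**
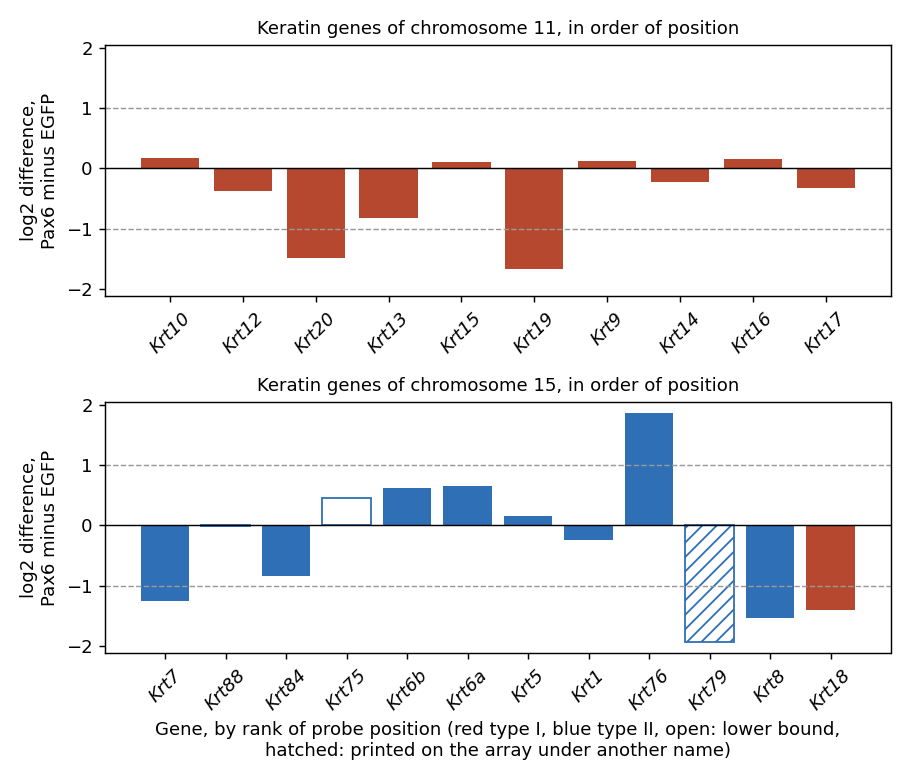
Log2 difference, Pax6 minus EGFP, of the 20 measured keratin genes, and of Krt79 and Krt88, which the array prints under other names (hatched), as bars from 0, in order of probe position on chromosome 11 (top) and chromosome 15 (bottom), with dashed lines at 2-fold and an open bar for a lower bound. Krt20 and Krt19 drop below 2-fold between neighbours within it, and Krt76 rises beside Krt79, Krt8 and Krt18, which drop.

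Among the other intermediate filament genes, Nes and Des were lower on the Pax6 array, and vimentin, the lamins and the light neurofilament gene were within 2-fold. Of these 10 genes, 9 cleared background on 1 or both arrays. By the 2-fold rule 2 of the 9 were lower (22.2%), 0 were higher and 7 lay between. Over all genes measured 2.46% were lower and 2.39% higher. Their median difference was 0.01, against -0.01 for all genes.

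Nes encodes nestin, the filament protein that marks neural progenitors. Its probe has 10 spots on each array, which read from 1592 to 1843 on the Pax6 array and from 4289 to 4966 on the EGFP array, so the spots of the arrays did not overlap (chromosome 3, 88094187 to 88094246). The means were 1711 on the Pax6 array and 4678 on the EGFP array. The difference was -1.66 ± 0.20, with an SD of 0.07 over the 10 spots, or 3.17-fold lower, and 0.423% of all genes measured had a lower difference. Spots of 1 array are repeat readings of 1 RNA sample and not biological replicates.

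Vim, the gene of vimentin, which forms filaments with nestin in progenitors and marks mesenchymal cells, was within 2-fold. It read 126293 on the Pax6 array and 99622 on the EGFP array (chromosome 2, 13521763 to 13521822), a difference of 0.13 ± 0.20. A second Vim probe, for a cDNA clone, was dim on both arrays. Of the other neural progenitor markers, Sox2 was higher at 1.74. The glutamate transporter gene Slc1a3 was lower at -3.69, and its second measured probe gave -1.79. Within 2 measurement errors were Fabp7 (0.47 ± 0.36), Prom1 (0.35 ± 0.21), Cdh2 (0.28 ± 0.20), Msi1 (0.03 ± 0.20) and Sox1 (-0.25 ± 0.37). The second Prom1 probe gave 0.56, and Fabp7 and Sox1 had low signals. Without Pax6 and Sox2 the list had a median difference of 0.16. Without Pax6 and Sox2, 0 progenitor markers were higher and 1 was lower by the 2-fold rule, with a sum of 2.43 on the Pax6 array and 2.41 on the EGFP array, and the list's part in the value of Nes was not tested. All 7 fibroblast markers were measured, 2 higher and 3 lower by the 2-fold rule. Their sum was 62.9 on the Pax6 array and 111 on the EGFP array, most of it from Col1a2. The part of these markers in the value of Vim was not tested.

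Des encodes desmin, the filament protein of muscle. Its 10 spots read from 21.3 to 29.8 on the Pax6 array and from 51.6 to 72.3 on the EGFP array, without overlap (within chromosome 1, 75593023 to 75593248). The difference was -1.54 ± 0.25, or 2.90-fold lower, with an SD of 0.21 over the spots, but the signals are low. With normexp background correction the difference was -0.56, within 2-fold, but the offset of 50 in that setting shrinks differences at such low signals. Of 7 muscle markers, 6 were well above background and 2 of these were at least 2-fold lower, Cnn1 at -2.02 and Tagln at -1.75, both actin-associated genes of smooth muscle. Myog, a defining gene of skeletal muscle, was dim on both arrays, Acta2 differed by 0.12 and Myod1 by -0.07. The muscle list had a median difference of -0.17 and a sum of 16.9 on the Pax6 array and 18.1 on the EGFP array, most of it from Acta2, and its part in the value of Des was not tested.

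**Figure D4:**
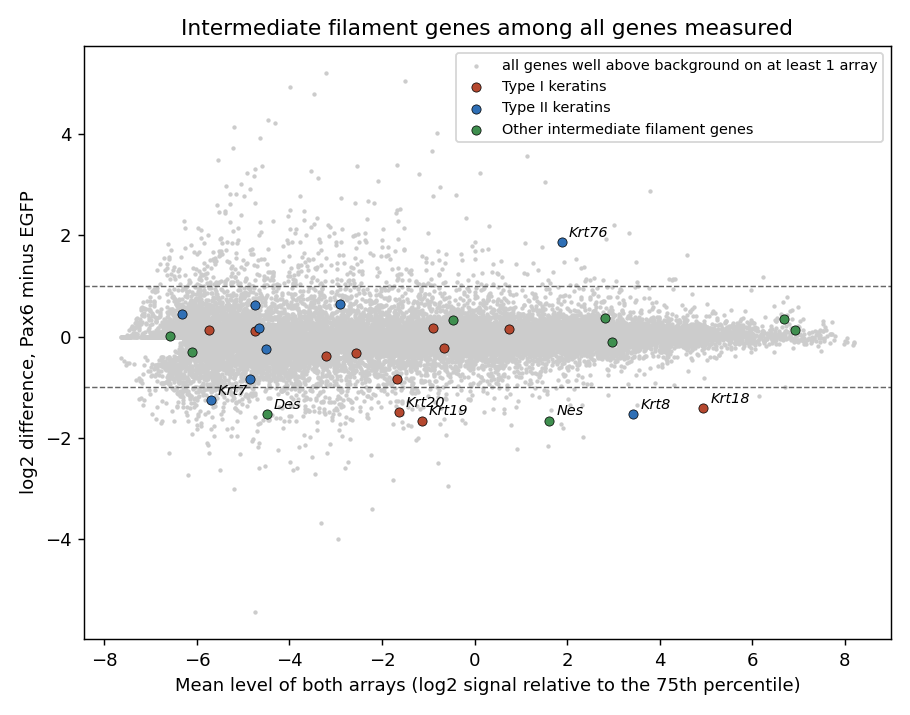
Log2 difference, Pax6 minus EGFP, against the mean level of both arrays (log2 signal relative to the 75th percentile) for all 18679 genes measured (grey) and the 29 intermediate filament genes (coloured), with dashed lines at 2-fold. Nes, Krt8, Krt18 and Krt76 lie at high levels where few grey points reach beyond 2-fold, while Krt7 and Des lie at low levels where the grey cloud is wide.

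Genes of neuronal and astrocytic filaments were within 2-fold or near background. Nefl, the light neurofilament subunit, read 8011 on the Pax6 array and 5327 on the EGFP array (0.37 ± 0.20), and its second probe differed by 0.39 ± 0.20, so both probes were slightly higher on the Pax6 array. Nefh, the heavy subunit, was near background, with 12.9 on the Pax6 array and 13.7 on the EGFP array (-0.30 ± 0.37). Its second probe read 11.5 on the Pax6 array and was dim on the EGFP array, so the probes settle no direction. Ina, the gene of alpha-internexin, was dim on both arrays. Gfap cleared background on the Pax6 array alone, at a signal of 12.1. Its difference as measured was 0.47 ± 0.56, less than its error, so no direction was read from it. The other Gfap probes were dim on both arrays. Of 7 neuron markers 6 were measured and 1 was lower by the 2-fold rule, with a median difference of -0.42 and a sum of 6.42 on the Pax6 array and 8.52 on the EGFP array. Of 6 astrocyte markers 5 were measured and 1 was higher, with a median of 0.60 and a sum of 7.88 on the Pax6 array and 7.55 on the EGFP array. Their part in the filament values was not tested.

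The lamin genes were within 2-fold. Lmna, which encodes the A-type lamins, read 115480 on the Pax6 array and 78145 on the EGFP array (0.35 ± 0.20), and its 3 probes differed by 0.14 to 0.35. Lmnb2 differed by 0.33 ± 0.20 and its second probe by 0.13 ± 0.21. Lmnb1, whose protein is a permanent part of the lamina, read 7535 on the Pax6 array and 6963 on the EGFP array (-0.10 ± 0.20). None of the 3 genes differed by more than 2 measurement errors.

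Over all members, 12 of the 27 genes seen on both arrays differed by more than 2 measurement errors, or 44.4%, against 17.5% of all 17304 such genes. Besides the 8 genes at least 2-fold different, these were Krt13, Krt84, Krt6a and Krt6b.

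Genes of a list built around filament linkers and junctions differed in part. Not every gene in this linker list encodes a filament linker. Of the 24 listed genes, 21 were well above background, with a median difference of -0.02. By the 2-fold rule 3 of these were lower (14.3%) and 1 was higher (4.76%), against 2.46% and 2.39% of all genes measured. Krtcap3, named after keratinocytes, was 2.63-fold lower, Jup, the gene of plakoglobin in desmosomes, 2.21-fold lower and Itgb4, the integrin subunit that anchors keratins at hemidesmosomes, 2.05-fold lower. Itgb4 was within 2-fold, at -0.96 after scaling by the median and -0.89 with the mean of its probes. Tchh, the gene of trichohyalin, a protein that cross-links keratin in the root sheath, was 2.92-fold higher. Its signals were 47.2 on the Pax6 array and 14.0 on the EGFP array. With normexp background correction it differed by 0.46, within 2-fold. The offset of 50 in that setting is above both signals and shrinks the difference, so that value cannot decide the call. The plakin gene Dsp, whose protein ties keratins to desmosomes, differed by -0.03, and Plec, the gene of the general linker plectin, by 0.20. The 5 Plec probes ran from -0.74 to 0.31.

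Partners of the nuclear lamina showed no member past 2-fold. All 17 listed genes were well above background on both arrays, and 0 were counted in either direction. Over all genes measured 4.85% were counted in either direction, so a count of 0 among 17 is near that share. Their median difference was 0.07 and they ranged from -0.15 for Syne2, a nesprin, to 0.31 for Lemd2, an inner nuclear membrane protein. These values are of the brightest probe of each gene, and the 7 Syne2 probes ran from -0.94 to -0.06. Lbr, the lamin B receptor, differed by 0.29.

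**Figure D5:**
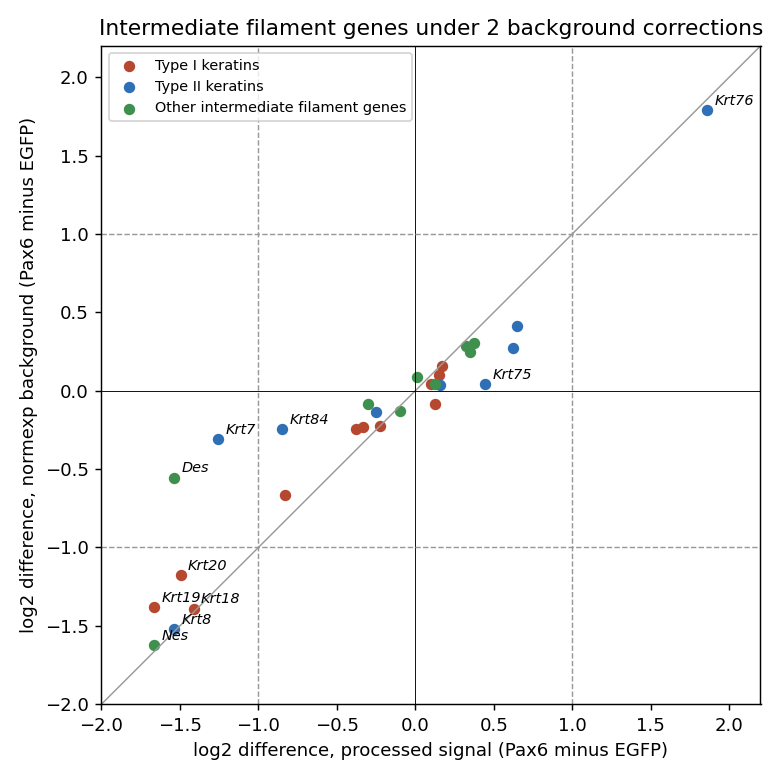
Log2 difference, Pax6 minus EGFP, of the 29 genes with the processed signal (x axis) and with normexp background correction and quantile normalization (y axis), with the diagonal and dashed lines at 2-fold. Krt76, Nes, Krt8 and Krt18 lie near the diagonal, whereas Krt7 and Des, beyond 2-fold on the x axis, lie within 2-fold on the y axis. The offset of 50 in the setting of the y axis shrinks differences at low signals such as theirs.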

How the data were processed

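Per the labels' protocols, total RNA (ISOGEN) was linearly amplified and labelled with Cy3. Per the file headers, the authors quantified the scans with Agilent Feature Extraction 10.7.3.1. The deposited intensity values are its processed signals, from which background had been subtracted and a spatial trend removed. Per the file headers, deposited flags (unit other) mark outlier spots, and spots are well above background when 13 background SDs over it. Both arrays lay on 1 slide. The deposited series table held the same intensity values (largest relative difference 0).

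Outlier spots (52 on the Pax6 array, 51 on the EGFP array) were left out, which kept 43283 spots. Replicate spots were averaged on the log2 scale after scaling. Probes took current RefSeq symbols by accession (22951 of 41168) or through another probe of the same printed name. For a gene seen on 1 array the value is a lower bound: the dim array takes its own signal or, if larger, the smallest signal well above background, and a negative bound is set to 0. The measurement error combines the software's errors of both signals. The steps were tested on simulated data. Python 3.11.15, R 4.3.3 and limma 3.58.1 were used.

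Members, gene lists, keratin groups and rules were chosen with earlier results of these data known. All members with a signal were named, with Pax6, Cdh1, Epcam and, from the linker and lamina lists, up to 4 genes at least 2-fold different. Further list and marker genes were named after their values were seen. Pax6 itself differed by 0.35 ± 0.20 on its brightest probe. Of its 3 probes, the 2 seen on both arrays differed by 0.26 and 0.35. The mean of its probes was 0.99, which takes in the third probe, not well above background on both arrays. No source used here says whether its probes read the transgene. The settings varied were median scaling, quantile normalization, cyclic loess, normexp (offset 50) with quantile normalization, the series table, averaging each gene's probes, no filter or one on both arrays, a 3-fold rule, and a 2-fold rule that also asked for over 2 measurement errors.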

Additional observations from a re-analysis of the deposited data

How the results depend on the processing

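Among the 29 genes no difference of at least 2-fold changed sign under any alternative tried. For Krt18, Krt19, Krt20, Krt76, Nes, Krt7 and Des only 4 alternatives changed the value at all (3 scalings and normexp background correction), and for Krt8 also the mean of its probes. All stayed past 2-fold under these except Krt7 and Des with normexp background correction. The offset of 50 in that setting shrinks differences at low signals and is above both Krt7 signals, so it cannot decide the Krt7 call. The median difference of the keratins lay between -0.25 and -0.15 over these alternatives. With a 3-fold rule, 1 keratin was lower (Krt19), 1 other filament gene was lower (Nes), and 0 genes of the linker list were lower or higher. Over all genes that rule gave 102 lower and 165 higher, against 459 lower and 446 higher at 2-fold. With normexp background correction 1 other filament gene was lower (Nes) and 0 genes of the linker list were higher. Tchh was lost there, with both its signals below the offset of 50. Over all genes 108 were then lower and 175 higher. Without a filter on dim probes 7 keratins were counted as lower and 2 as higher, and over all genes 1206 were lower and 1281 higher. The share of all called genes that were lower was 50.7%, but 40.6% after scaling by the median, 38.2% with normexp background correction and 38.2% with the 3-fold rule. The cause of these shifts was not tested. No paired analysis was possible because each group has 1 array. Leaving out an array was not possible for the same reason. Signals near background, as for Krt7, Des, Krt84, Nefh and Gfap, limit what can be read from those genes.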

Other observations

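Intermediate filament genes that the array prints under another name were outside the name rule, 7 genes by their current symbols. Krt79, a type II keratin printed as BC031593, read 39.2 on the Pax6 array and 129 on the EGFP array. Its difference of -1.94 ± 0.22, or 3.83-fold lower, is lower than that of any keratin the rule took. Krt79 is not one of the simple-epithelial keratins listed above, so the lower keratins were not all of that group. Prph, the gene of the peripheral neuron filament peripherin, read 50.3 on the Pax6 array and 59.7 on the EGFP array (-0.46 ± 0.22). Synm, the gene of synemin, was near background at 12.5 on the Pax6 array and 13.9 on the EGFP array (-0.37 ± 0.38), and Krt88 differed by -0.01 ± 0.31. Nefm, Krt86 and Krt90 were not detected above background. Bfsp1 and Bfsp2, filament genes of the lens, are printed under their own names but were not names of the rule. Bfsp1 read 65.7 on the Pax6 array and 34.3 on the EGFP array, a difference of 0.72 ± 0.23, or 1.65-fold higher. Its lens partner Bfsp2 differed by -0.53 ± 0.33.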
